A study of Mus musculus with 10 samples.

Results

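The 10 genes described here belong to the p38 and JNK stress kinase cascades and to their feedback on mRNA and on the kinases themselves. They were taken as a fixed set of symbols, *Map3k5*, *Map2k3*, *Map2k6*, *Mapk14*, *Mapk8*, *Mapkapk2*, *Dusp1*, *Dusp10*, *Dusp16* and *Zfp36*, and were found by matching Ensembl gene identifiers to GENCODE symbols on GRCm38. The set was chosen with earlier results of these data known. All 10 genes were among the 12148 genes of the deposited table and among the 12147 that were tested. RNA was sequenced from the whole liver of 10 wild-type germ-free (GF) C57BL6 mice, animals raised without any microbes. In the GF+MEV group, 5 mice received 80 μg of microbiota-derived extracellular vesicles (MEV) in PBS by mouth, and in the GF+PBS group, 5 mice received PBS alone, in each case 2 times per week for 3 weeks. The vesicles are membrane particles shed by gut bacteria and were purified from caecal content or faeces of control mice. Both groups came from a single experiment, and the age of the germ-free mice and the hour of liver collection are not given in the sources used here. The comparison asks which transcripts of the cascade differed between livers with and without vesicles.

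Stress kinases work in tiers. A MAP kinase kinase kinase phosphorylates a MAP kinase kinase, which phosphorylates and activates p38 or JNK, and dual-specificity phosphatases remove those phosphates again. Through the kinase MK2, p38 also acts on tristetraprolin, the product of *Zfp36*, a zinc finger protein that binds AU-rich stretches near the 3′ end of mRNAs and brings in the deadenylases that start their decay. In the liver these kinases respond to oxidative, cytokine and nutrient signals, p38 has been tied to the gene program of fasting, and JNK to insulin resistance. *Dusp1* and *Zfp36* are immediate early genes, induced within minutes by growth factors, cytokines, cAMP and glucocorticoids. All values below are mRNA levels. Phosphorylation and protein were not measured in these libraries.

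Expression is given as CPM, the read count of a gene scaled to the size of its library after TMM normalization. Libraries held between 15746119 and 20523649 counts on genes, and the raw counts of the 10 genes ran from 44 for *Dusp10* to 4302 for *Zfp36*. Log2 ratios are log2 fold changes of GF+MEV over GF+PBS from edgeR, given with a standard error (SE) where needed. A gene was called when the quasi-likelihood test of edgeR gave a Benjamini-Hochberg adjusted p under 0.05 over all tested genes. Nothing in the labels says how mice were housed or paired, so p-values measure the spread between these livers. Pairs of livers were compared over 300 genes, picked for a large variance across the livers of GF+MEV alone. Within GF+PBS, livers 1 and 3 and livers 4 and 5 were alike. Their root mean square difference was 0.53 and 0.50 on the log2 scale, against 0.68 to 0.85 in the 8 other GF+PBS pairs. The 10 GF+MEV pairs had 0.92 to 1.33, but the choice of genes favours larger values in that group. The spread of the groups can thus not be compared by these values. Because of the alike GF+PBS pairs, results are also given with each of them summed to 1 sample where that changes the results. The TMM factor of GF+MEV 2 was 0.890, against 0.978 to 1.04 in the other libraries. All 6 hepatocyte markers, such as *Alb* and *Apoa1*, were present, and they summed to between 85024 and 103873 CPM in GF+MEV and between 88796 and 104882 CPM in GF+PBS livers. By edgeR, 2 of them, *Cps1* and *Hnf4a*, were called higher in GF+MEV livers and none lower, against 4.12% and 3.52% of all tested genes. Their part in the values of the 10 genes was not tested.

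Of the 10 genes, 4 were called higher in GF+MEV livers, namely *Dusp1*, *Zfp36*, *Map2k6* and *Map3k5*, where 4.12% of all tested genes were. The 10 were chosen with earlier results of these data known, so these shares are a description and not a test of the set. None was called lower, against 3.52% of all tested genes, and none was lower at an unadjusted p under 0.05 in edgeR or past an adjusted p of 0.05 in DESeq2 or limma-voom. Over all tested genes 500 were called higher and 428 lower, and 428 and 612 with upper-quartile scaling, under which the same 4 of the 10 genes were called. In either direction 4 of 10 were called, against 7.64% of all tested genes. For *Dusp1* and *Zfp36* the groups did not overlap, with all GF+MEV livers on the higher side, as for 3.94% of all tested genes. None lay wholly below the GF+PBS livers, against 3.45%, and in either direction 2 of 10 did not overlap, against 7.39%. The other 8 genes overlapped. The median log2 ratio of the 10 genes was 0.18, and that of all tested genes was -0.0037. The 4 calls fell in different tiers of the cascade. They were a MAP3K, an activator of p38, a phosphatase and the mRNA decay factor, while neither of the MAP kinases *Mapk14* and *Mapk8* was called.

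**Figure D1:**
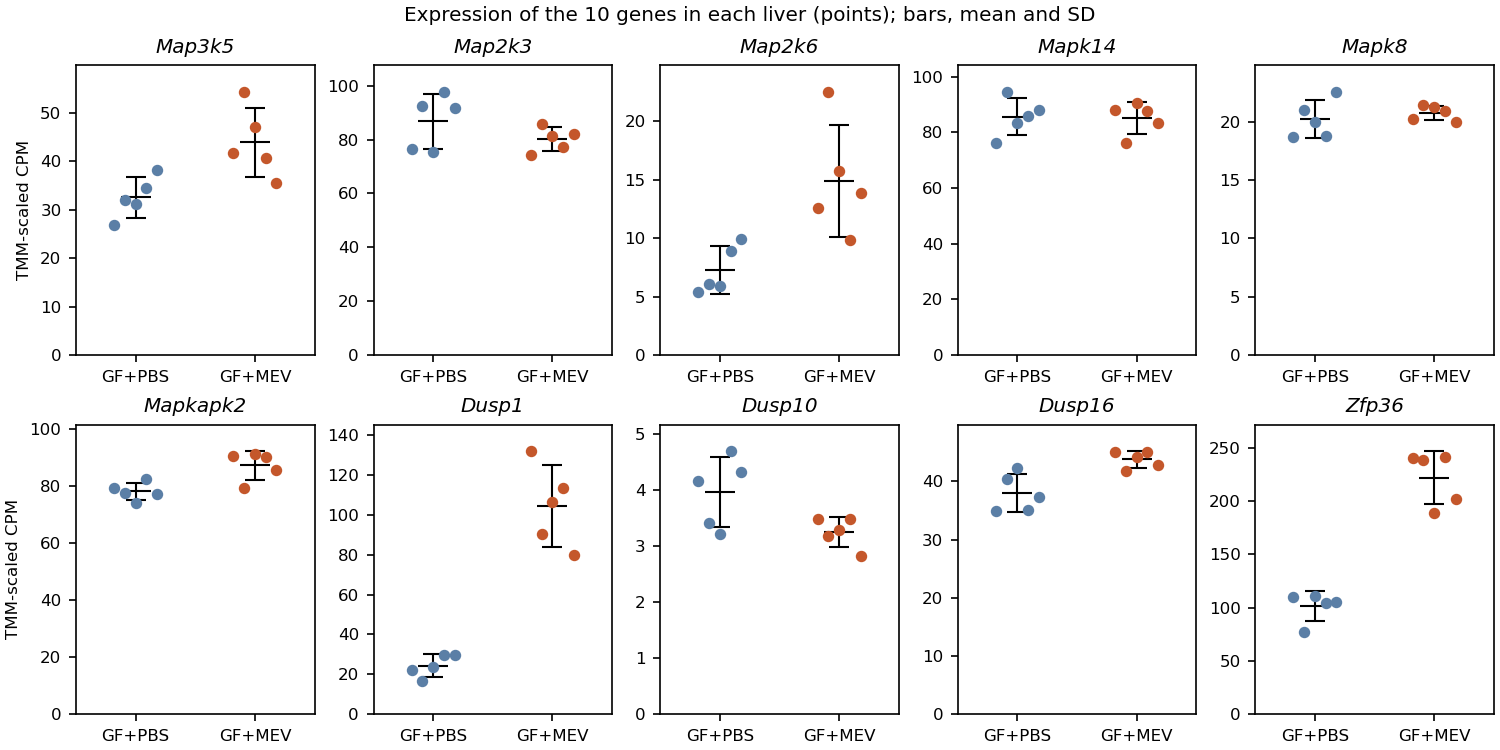
TMM-scaled CPM of the 10 genes in each liver, 1 panel per gene with its own scale from 0; points are livers (blue GF+PBS, orange GF+MEV, n = 5 each) and bars the mean and SD. *Dusp1* and *Zfp36* do not overlap between the groups, 4 of 5 GF+MEV livers lie above all GF+PBS livers for *Map2k6* and *Map3k5*, and *Mapk14* and *Mapk8* lie at one level in both.

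*Dusp1* (ENSMUSG00000024190) encodes MKP-1, a nuclear phosphatase that inactivates p38 and JNK. It lies on the minus strand of chromosome 17 of GRCm38, from 26505590 to 26562128 in GENCODE. This span reaches far upstream of the RefSeq start at 26508472. In the GF+MEV livers 1 to 5 *Dusp1* was at 132, 90.2, 107, 114 and 79.7 CPM. In the GF+PBS livers 1 to 5 it was at 22.1, 16.6, 23.6, 29.8 and 29.8 CPM. The lowest GF+MEV liver was thus well above the highest GF+PBS liver, and within GF+PBS the alike livers 4 and 5 were highest and liver 2 lowest. The means were 104 ± 20.4 and 24.4 ± 5.60 CPM (SD, n = 5 each), a 4.28-fold rise with a log2 ratio of 2.10 (SE 0.20, edgeR adjusted p = 9.25e-07). It had the 32nd smallest p of all tested genes. An exact two-sided permutation test over all labelings of the livers gave p = 0.00794, the smallest that 5 livers against 5 allow. The log2 ratio stayed between 1.99 and 2.18 when any liver was left out.

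The annotated exons of *Dusp1* overlap those of *Ergic1* on the other strand, and whether the counting used strand is not given in the sources used here. *Ergic1* itself was at 72.5 ± 4.79 CPM in GF+MEV and 71.2 ± 3.97 CPM in GF+PBS livers (SD, n = 5 each), a log2 ratio of 0.027 (edgeR adjusted p = 0.857). The means of *Ergic1* thus differed by less than the spread between livers.

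The bases just before the RefSeq start of *Dusp1*, on the minus strand at chr17:26508473-26508722 of GRCm38.p6, are shown because they hold the element through which cAMP signals are known to act on many immediate early genes. Capitals mark the cAMP response element (CRE) TGACGTCA and its half-site TGACG.

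Dusp1: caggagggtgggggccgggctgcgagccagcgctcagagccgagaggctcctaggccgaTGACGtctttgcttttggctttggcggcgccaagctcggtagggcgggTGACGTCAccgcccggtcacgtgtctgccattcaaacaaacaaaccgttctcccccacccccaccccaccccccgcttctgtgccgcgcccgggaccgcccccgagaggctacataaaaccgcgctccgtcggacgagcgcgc

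The full CRE begins 143 bases before the start and a further half-site begins 191 bases before it. Both strands were searched over 250 bases before and 50 bases after each start, and the full element, which contains the half-site on each strand, was found in 1.79% of 32851 such mouse promoters and the half-site in 20.8%. No other gene of the 10 had the full element in its window. Outside the full element and besides *Dusp1*, a half-site was found in the windows of *Mapk8*, *Mapkapk2* and *Dusp16* and in none of *Map3k5*, *Map2k3*, *Map2k6*, *Mapk14*, *Dusp10* and *Zfp36*. These matches describe letters in the reference and not sites shown to be bound in liver.

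*Zfp36* (ENSMUSG00000044786) encodes tristetraprolin. It lies on the minus strand of chromosome 7, from 28376784 to 28380253 in GENCODE, with the RefSeq start inside this span at 28379228. Its level was 241, 238, 189, 242 and 202 CPM in the GF+MEV livers 1 to 5. In the GF+PBS livers 1 to 5 it was 110, 77.6, 111, 105 and 105 CPM. The groups were far apart, and within GF+PBS liver 2 stood below 4 livers that were close to each other. The means were 222 ± 25.1 and 102 ± 13.8 CPM (SD, n = 5 each), a 2.18-fold rise with a log2 ratio of 1.13 (SE 0.12, edgeR adjusted p = 4.38e-06). An exact two-sided permutation test gave p = 0.00794, again the smallest possible. Without any liver in turn, the log2 ratio was between 1.04 and 1.18. The exons of *Zfp36* overlap those of Gm44710 on the other strand, a gene that was not among those tested.

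The upstream bases of *Zfp36*, on the minus strand at chr7:28379229-28379478 of GRCm38.p6, are shown for comparison with those of *Dusp1*. Capitals mark a match to the short core of the serum response element, CC and GG around a stretch of A or T of this length. The full element is known to carry induction of immediate early genes by growth factors. Binding to this match was not measured.

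Zfp36: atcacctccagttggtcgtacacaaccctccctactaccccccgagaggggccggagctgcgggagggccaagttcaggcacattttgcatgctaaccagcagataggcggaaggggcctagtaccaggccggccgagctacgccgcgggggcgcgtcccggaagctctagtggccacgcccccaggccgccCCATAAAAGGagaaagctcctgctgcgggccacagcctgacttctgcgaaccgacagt

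The match begins 58 bases before the start, and such a match was found in 1.63% of the promoters. It occurred in no other window of the 10 genes, and the AP-1 site TGANTCA, found in 7.81% of the promoters, occurred only in that of *Map2k6*. The GC box GGGCGG, held by 35.7% of the promoters, was found in at least 1 window of all 10 genes. It was in only 1 of the 3 windows of *Map2k6* and in 1 of the 2 windows each of *Mapk14* and *Mapk8*, so a count by gene is not like that share. The windows with the box held 61.0% to 79.7% G and C, except 46.3% in that of *Map2k6*, against a median of 52.7% over the promoters. The half-site AGAACA of the glucocorticoid receptor, held by 19.0%, was found in windows of *Map2k6* and *Mapk14* and not in those of *Dusp1* or *Zfp36*, and the TATA box TATAAA, held by 13.6%, in 1 window of *Map2k6*.

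*Dusp1* and *Zfp36* also shared a feature of their mRNAs. Tristetraprolin and its relatives bind the AU-rich heptamer TATTTAT (written as DNA), and each of these transcripts held 3 copies after its stop codon. The sites are shown with the heptamer in capitals, on the minus strand of GRCm38, in their order along the mRNA.

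Dusp1 site at chr17:26506162-26506184: ctggtcctTATTTATttaacacc

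Dusp1 site at chr17:26505873-26505895: tttaccttTATTTATttttgtgt

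Dusp1 site at chr17:26505677-26505699: tgtttgttTATTTATgatctgaa

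Zfp36 site at chr7:28376969-28376991: gggcccttTATTTATgacgactt

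Zfp36 site at chr7:28376954-28376976: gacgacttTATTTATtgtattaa

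Zfp36 site at chr7:28376929-28376951: ttttatagTATTTATatatattg

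In *Dusp1* the heptamers begin 104, 393 and 589 bases after the stop codon and are spread over a 3′ end of 690 bases. In *Zfp36* they begin 575, 590 and 615 bases after it and lie close together in a 3′ end of 774 bases. The other 8 genes had no copy, although the 3′ end of *Mapk8* is 4410 bases long. Over 11389 tested genes with an annotated 3′ end, 30.0% held the heptamer. Among genes with a 3′ end within 20% of the length of that of *Dusp1*, 19.0% of 1265 held a copy and 0.949% held as many as *Dusp1*. For *Zfp36* the values were 19.3% and 0.9% of 1333 genes. Decay of these mRNAs was not measured.

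*Map3k5* (ENSMUSG00000071369) encodes ASK1, a MAP3K that thioredoxin holds inactive until oxidation releases it. It lies on the plus strand of chromosome 10, from 19934472 to 20142753. In GF+MEV livers 1 to 5 it was at 41.7, 54.4, 47.2, 40.7 and 35.6 CPM, and in GF+PBS livers 1 to 5 at 26.8, 32.1, 31.2, 34.5 and 38.2 CPM. Of the GF+MEV livers, 4 were above every GF+PBS liver, and liver 5 lay below GF+PBS 5. The means were 43.9 ± 7.17 and 32.5 ± 4.22 CPM (SD, n = 5 each), a log2 ratio of 0.43 (SE 0.13, edgeR adjusted p = 0.0285), with an exact two-sided permutation p of 0.0159. This call was the least firm of the 4. It was lost without GF+MEV 2 (edgeR adjusted p = 0.0596), GF+MEV 3 (0.0707), GF+PBS 1 (0.0577), GF+PBS 2 (0.0504) or GF+PBS 3 (0.0684), and with the alike GF+PBS livers summed (0.0635), and the log2 ratio in these 6 fits ran from 0.35 to 0.45.

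*Map2k6* (ENSMUSG00000020623) and *Map2k3* (ENSMUSG00000018932) encode MKK6 and MKK3, the kinases that activate p38. *Map2k6* lies on the plus strand of chromosome 11, from 110399122 to 110525522, and *Map2k3* on the same strand and chromosome, from 60932033 to 60952811. *Map2k6* was at 12.6, 22.6, 15.8, 9.82 and 13.9 CPM in GF+MEV livers 1 to 5 and at 5.39, 6.11, 5.89, 8.94 and 9.97 CPM in GF+PBS livers 1 to 5. GF+MEV 4 lay just under GF+PBS 5 and the other GF+MEV livers were above all GF+PBS livers. The mean rose from 7.26 ± 2.05 to 14.9 ± 4.79 CPM (SD, n = 5 each), 2.06-fold, with a log2 ratio of 1.03 (SE 0.26, edgeR adjusted p = 0.00827) and an exact two-sided permutation p of 0.0159. The log2 ratio without GF+MEV 2, the highest liver, was 0.85, and *Map2k6* was called with any liver left out. With the alike GF+PBS livers summed it was 1.07 (edgeR adjusted p = 0.0291). Its spread within a group was the largest of the 10 genes, a coefficient of variation of 32.1% in GF+MEV and 28.3% in GF+PBS livers.

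RefSeq gives 3 starts for *Map2k6*. The bases before the most upstream of them, on the plus strand at chr11:110398852-110399101 of GRCm38.p6, are shown because they hold the AP-1 site, the site of Jun-containing dimers, here in capitals.

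Map2k6: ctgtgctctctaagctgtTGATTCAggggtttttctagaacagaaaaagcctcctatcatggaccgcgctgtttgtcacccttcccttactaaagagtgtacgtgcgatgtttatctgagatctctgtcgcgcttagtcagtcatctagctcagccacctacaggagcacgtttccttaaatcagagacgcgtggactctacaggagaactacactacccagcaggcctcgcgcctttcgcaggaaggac

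The AP-1 site begins 232 bases before this start. It was absent from the windows of the other 2 starts, and which start the liver uses was not measured. Such a site was found in 7.81% of all promoters searched, and binding to it was not measured.

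*Map2k3* ran from 74.2 to 86.0 CPM in GF+MEV livers and from 75.3 to 97.8 CPM in GF+PBS livers. Its means of 80.2 ± 4.57 and 86.8 ± 10.2 CPM (SD, n = 5 each) gave a log2 ratio of -0.11 (edgeR adjusted p = 0.442), and the 95% interval of the difference in log2 CPM went from -0.30 to 0.089. Of the summed CPM per kb of these kinases, *Map2k6* made up 14.96% ± 3.39 in GF+MEV and 7.37% ± 1.42 in GF+PBS livers (SD, n = 5 each). *Map2k3* was thus the more abundant mRNA in both groups.

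*Mapk14* (ENSMUSG00000053436, chromosome 17 from 28691329 to 28748406, plus strand) encodes p38α, and *Mapk8* (ENSMUSG00000021936, chromosome 14 from 33377898 to 33447158, minus strand) encodes JNK1. *Mapk14* was at 85.1 ± 5.65 CPM in GF+MEV and 85.6 ± 6.74 CPM in GF+PBS livers (SD, n = 5 each), with a log2 ratio of -0.0075 (edgeR adjusted p = 0.969). The 95% interval of its difference in log2 CPM was -0.16 to 0.15. For *Mapk8* the levels were 20.8 ± 0.617 and 20.2 ± 1.64 CPM (SD, n = 5 each), the log2 ratio 0.041 (edgeR adjusted p = 0.806) and the interval -0.084 to 0.17. The groups were interleaved for *Mapk14*, from 76.2 to 90.6 CPM in GF+MEV and from 76.1 to 94.6 CPM in GF+PBS. *Mapkapk2* (ENSMUSG00000016528, chromosome 1 from 131053700 to 131097826, minus strand) encodes MK2, the p38 substrate that phosphorylates tristetraprolin. It was at 90.5, 79.2, 91.1, 90.3 and 85.6 CPM in GF+MEV livers 1 to 5 and from 74.2 to 82.5 CPM in GF+PBS livers. Its 4 highest values were all in GF+MEV. The log2 ratio was 0.16 (SE 0.046, edgeR adjusted p = 0.107, exact two-sided permutation p = 0.0238), so it was not called, and the 95% interval of 0.054 to 0.26 in log2 CPM lay above 0.

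*Dusp10* (ENSMUSG00000039384, chromosome 1 from 184013302 to 184075636, plus strand) and *Dusp16* (ENSMUSG00000030203, chromosome 6 from 134715468 to 134792625, minus strand) encode MKP-5 and MKP-7, phosphatases that prefer JNK and p38. *Dusp16* was at 45.1, 41.7, 44.2, 45.03 and 42.9 CPM in GF+MEV livers 1 to 5 and at 35.0, 40.3, 42.3, 35.1 and 37.2 CPM in GF+PBS livers 1 to 5. Only GF+MEV 2 was below a GF+PBS liver, by a small margin. The log2 ratio was 0.21 (SE 0.059, edgeR adjusted p = 0.0777, exact two-sided permutation p = 0.0159), not past the threshold. It was called by DESeq2 (adjusted p = 0.0445) and by edgeR without GF+PBS 3 (log2 ratio 0.25, adjusted p = 0.0463). *Dusp10* was the lowest of the 10 genes, with 44 to 93 reads per liver. Its 3.25 ± 0.270 CPM in GF+MEV and 3.96 ± 0.627 CPM in GF+PBS livers (SD, n = 5 each) gave a log2 ratio of -0.29 (edgeR adjusted p = 0.260, exact two-sided permutation p = 0.0873). It was not called, and the 95% interval of -0.53 to -0.0044 in log2 CPM lay below 0.

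**Figure D2:**
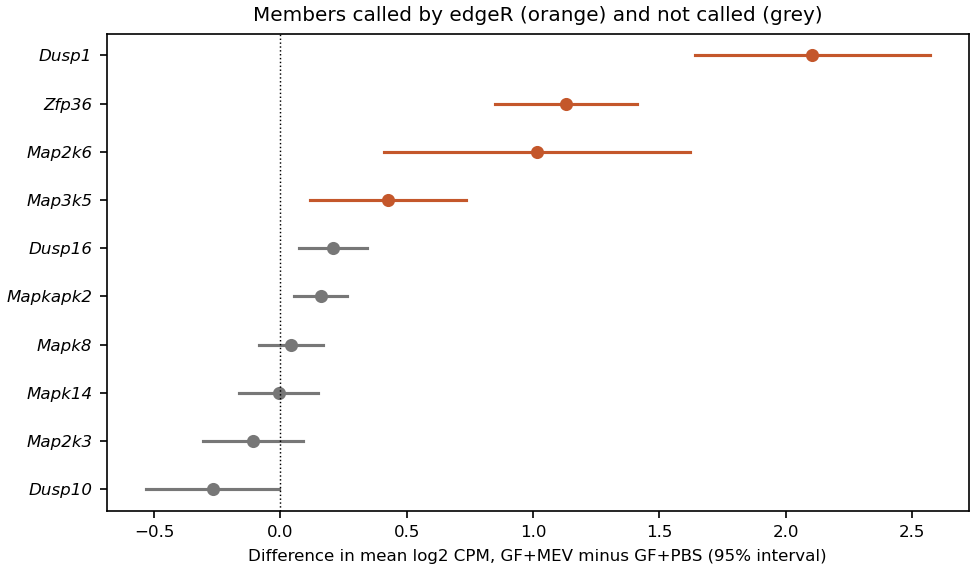
Difference in mean log2 CPM between GF+MEV and GF+PBS livers (n = 5 each) for the 10 genes, GF+MEV minus GF+PBS, with points at the difference and lines for its 95% interval; orange genes were called by edgeR and grey ones were not. The intervals run from 1.64 to 2.57 for *Dusp1* and from 0.85 to 1.41 for *Zfp36*, while those of *Mapk8*, *Mapk14* and *Map2k3* include 0.

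Levels of different genes can be set side by side only per length, so CPM was divided by kb of merged exon. In GF+PBS livers the order by mean was *Zfp36* (29.3 CPM per kb), *Map2k3* (26.2), *Mapkapk2* (25.7), *Mapk14* (19.6), *Dusp1* (7.36), *Map3k5* (5.35), *Dusp16* (4.87), *Map2k6* (2.11), *Mapk8* (1.76) and *Dusp10* (1.30). The livers of *Zfp36*, *Map2k3* and *Mapkapk2* overlapped in this order, as did those of *Dusp1*, *Map3k5* and *Dusp16* and those of *Map2k6* and *Mapk8*. In GF+MEV livers *Zfp36* was at 64.0 CPM per kb and *Dusp1* at 31.5, followed by *Mapkapk2* (28.7), *Map2k3* (24.2), *Mapk14* (19.4), *Map3k5* (7.22), *Dusp16* (5.61), *Map2k6* (4.33), *Mapk8* (1.81) and *Dusp10* (1.07). Here *Zfp36* stood alone above the rest, *Dusp1* overlapped with *Mapkapk2* and *Map2k3*, and *Map2k6* overlapped with both *Map3k5* and *Dusp16*. *Dusp1* thus went from place 5 to place 2, while *Mapk14* and *Mapk8* kept their levels. With the length of the longest transcript in place of merged exons, *Map2k3* came before *Zfp36* in GF+PBS livers, and *Dusp1* had the same places.

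*Dusp1* and *Zfp36* also held larger shares of their families in GF+MEV livers. *Dusp1* held 57.01% ± 5.38 of the summed CPM per kb of the 6 MAP kinase phosphatases tested (*Dusp1*, *Dusp4*, *Dusp6*, *Dusp7*, *Dusp10* and *Dusp16*) in GF+MEV livers and 23.6% ± 4.81 in GF+PBS livers (SD, n = 5 each). *Dusp6*, a phosphatase of ERK that is named here because its share was the largest in GF+PBS, went from 48.2% ± 5.23 to 25.1% ± 5.32, although its own CPM overlapped between the groups, from 30.9 to 54.7 and from 39.3 to 58.3. Such a share falls when another gene of the sum rises. *Zfp36* held 59.9% ± 3.57 of the summed CPM per kb of *Zfp36*, *Zfp36l1* and *Zfp36l2* in GF+MEV and 35.4% ± 2.69 in GF+PBS livers, and *Zfp36l1* 29.0% ± 2.85 and 50.9% ± 3.12 (SD, n = 5 each). By merged exons the leading member of both families thus differed between the groups in these shares, which are given as a description. The merged exons of *Zfp36*, 3470 bases, cover its whole annotated span, and a shorter length would raise its share in both groups. With the longest transcript, *Zfp36* held 40.5% and *Zfp36l1* 46.8% in GF+PBS livers. Which of them leads in GF+PBS livers thus depends on the length and is not settled here. Part of the difference in these shares between the groups lay in *Zfp36l1* itself, which was called lower as described below.

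**Figure D3:**
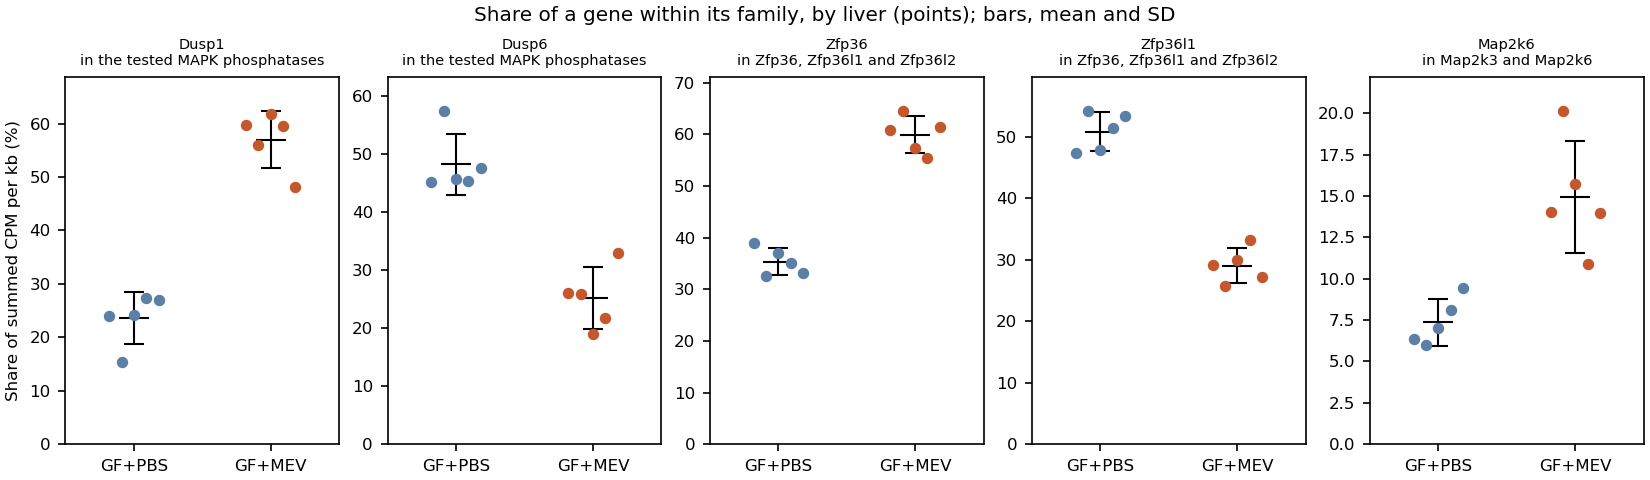
Share of a gene in the summed CPM per kb of its family in each liver (points, n = 5 per group), with bars for mean and SD and each axis starting at 0. *Dusp1*, *Zfp36* and *Map2k6* take a larger share in every GF+MEV liver than in any GF+PBS liver, and *Dusp6* and *Zfp36l1* a smaller one.

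Around the 10 genes, 99 further genes of the same pathways were grouped into 9 lists, chosen with earlier results of these data known. The shares below thus describe the lists and test nothing. Of the 99 genes, 76 were tested. Of these, 8 were called higher (10.5%, against 4.12% of all tested genes) and 5 lower (6.58%, against 3.52%), with a median log2 ratio of 0.039. The lower count did not hold up in fits with fewer samples. It was 1 without GF+MEV 1, 2 or 5 or GF+PBS 4 and with the alike livers summed. It was 2 without GF+PBS 3 or 5, and 3 without GF+MEV 3 or GF+PBS 1. It was 4 without GF+MEV 4 and 5 without GF+PBS 2. Over all tested genes the lower count also fell, from 428 to between 304 and 397 with 1 liver left out. With the alike livers summed, 209 of all tested genes were lower. Most of the kinase tiers were among the genes not called, as were most of all tested genes. In the MAP3K list, none of 16 tested genes was called higher by edgeR, against 4.12% of all tested genes. At an unadjusted edgeR p under 0.05, 1 was higher, and 1 was higher by DESeq2. *Tab1*, a TAK1 partner, was lower with a log2 ratio of -0.39 (edgeR adjusted p = 0.0338). The most abundant gene of this list per kb, *Map3k11* (MLK3), had one of -0.062 (edgeR adjusted p = 0.628). None of the 5 tested genes of the MAP2K and MAPK list and none of the 4 JNK scaffold genes was called by edgeR, DESeq2 or limma-voom. None had an unadjusted edgeR p under 0.05. By edgeR, 7.64% of all tested genes were called in either direction, so lists this short can be without a call. The most abundant gene per kb of the MAP2K and MAPK list, the JNK activator *Map2k4*, had a log2 ratio of 0.078 (edgeR adjusted p = 0.535). That of the scaffold list, *Spag9*, had one of 0.17 (SE 0.11, edgeR adjusted p = 0.330).

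Among regulators of the MAP3K tier, the mRNAs of 2 GADD45 proteins, which bind and activate the MAP3K MEKK4, were called in opposite directions, and *Gadd45b* was not among the tested genes. Of the 7 tested genes of this list, 1 was thus called higher and 1 lower, against 4.12% and 3.52% of all tested genes. *Gadd45g* was between 133 and 214 CPM in GF+MEV livers and at 38.1, 5.04, 34.8, 55.2 and 51.9 CPM in GF+PBS livers 1 to 5, a log2 ratio of 2.08 (SE 0.64, edgeR adjusted p = 0.0034). GF+PBS 2 was far below the other livers, and it was also the lowest liver for *Dusp1* and *Zfp36*. Without it the log2 ratio of *Gadd45g* was 1.80. *Gadd45a* fell from 4.02 ± 0.650 to 1.58 ± 0.226 CPM (SD, n = 5 each), a log2 ratio of -1.35 (edgeR adjusted p = 0.0001). *Txn1*, the thioredoxin that restrains ASK1 and the most abundant gene of the list per kb, was not called (log2 ratio -0.096, edgeR adjusted p = 0.438). Of the 5 tested p38 substrate kinases, 1 was called higher, against 4.12% of all tested genes. This was *Mknk2*, which phosphorylates the translation factor eIF4E, with a log2 ratio of 0.64 (edgeR adjusted p = 0.0118). Of the 7 further phosphatases tested, 1 was called higher, again against 4.12% of all tested genes. This was *Dusp4*, a nuclear phosphatase related to *Dusp1*, which rose from 2.77 ± 0.336 to 5.41 ± 1.80 CPM (SD, n = 5 each, log2 ratio 0.97, edgeR adjusted p = 0.0092). *Ppm1b*, the most abundant per kb, did not pass the test (log2 ratio 0.0078, edgeR adjusted p = 0.957). In the other direction, *Dusp7*, a phosphatase of ERK picked out after its values were seen, had a log2 ratio of -0.53 (edgeR adjusted p = 0.0827) and was called lower by DESeq2 alone of the 3 tools.

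The transcription factors at the end of the cascades had the most calls, with 5 of 15 tested genes higher (33.3%, against 4.12% of all tested genes), none lower (against 3.52%) and a median log2 ratio of 0.27. At an unadjusted p under 0.05, 1 was lower in edgeR, and DESeq2 and limma-voom called none lower. This list, like the others, was chosen with earlier results of these data known. Its genes *Fos*, *Fosb* and *Fosl1* were not among those tested. *Jun*, the JNK substrate that gave the kinase its name, had the largest log2 ratio, 2.78 (SE 0.26, edgeR adjusted p = 7.93e-07), from 6.78 to 15.3 CPM in GF+PBS and from 54.2 to 96.3 CPM in GF+MEV livers. *Jund* rose by 0.67 on the log2 scale (edgeR adjusted p = 0.0116). *Atf3*, a stress-induced partner of Jun proteins, rose by 0.98 (edgeR adjusted p = 0.0209). *Atf3* was low, at 1.30 to 1.95 CPM in GF+MEV and 0.444 to 1.12 CPM in GF+PBS livers. The fit that asked for 10 counts in each library did not test it. The p38 and ERK targets *Mef2a* (log2 ratio 0.32, edgeR adjusted p = 0.0289) and *Elk4* (0.36, adjusted p = 0.0477) were nearer the threshold. The *Mef2a* call was lost without GF+MEV 4 or 5 or GF+PBS 1, 3 or 4 (edgeR adjusted p up to 0.0770), and the *Elk4* call held only without GF+PBS 5 among the fits with 1 liver left out (adjusted p up to 0.104 in the others). *Junb*, the most abundant of the list per kb, had a log2 ratio of 0.084 (edgeR adjusted p = 0.743).

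In the list of AU-rich mRNA binding and decay factors, 2 of 13 tested genes were lower (15.4%, against 3.52% of all tested genes) and none was higher by edgeR, DESeq2 or limma-voom or at an unadjusted edgeR p under 0.05. *Zfp36l1*, the relative of *Zfp36* and the most abundant of this list per kb, was at 99.2, 81.6, 84.9, 124 and 77.0 CPM in GF+MEV livers 1 to 5 and at 111 to 146 CPM in GF+PBS livers. All but GF+MEV 4 were below every GF+PBS liver, and the log2 ratio was -0.43 (SE 0.14, edgeR adjusted p = 0.0395). The CCR4-NOT deadenylase subunit *Cnot8* had a log2 ratio of -0.24 (edgeR adjusted p = 0.0277). Among the fits with 1 liver left out, the *Zfp36l1* call held only without GF+MEV 4, GF+PBS 1 or GF+PBS 2, with an adjusted p of up to 0.0976 in the others, that of *Cnot8* only without GF+MEV 4 or GF+PBS 2 (up to 0.0746), and that of *Tab1* only without GF+MEV 3, GF+PBS 2 or GF+PBS 5 (up to 0.0894). Of 13 mRNAs known to be bound by tristetraprolin, 4 were tested, and the cytokine mRNAs *Tnf*, *Il6*, *Il1b* and *Il10* were not in the table. *Myc* was lower, with a log2 ratio of -1.50 (SE 0.54, edgeR adjusted p = 0.0414), at 2.99 to 6.01 CPM in GF+MEV livers and at 7.33, 3.19, 7.97, 21.9 and 19.9 CPM in GF+PBS livers 1 to 5. The alike GF+PBS livers 4 and 5 were far above the other GF+PBS livers, and GF+PBS 2 lay among the GF+MEV livers. The *Myc* call was lost by limma-voom (adjusted p = 0.167), with the alike livers summed (edgeR adjusted p = 0.118), and without GF+MEV 1, 2, 3 or 5 or GF+PBS 4 or 5 (up to 0.121). With the alike livers summed, *Tab1*, *Elk4*, *Mef2a*, *Zfp36l1* and *Cnot8* were not called either (edgeR adjusted p from 0.0599 to 0.148). *Plk3*, the most abundant of the 4 per kb, was not called (log2 ratio 0.70, edgeR adjusted p = 0.272). The exons of *Jun*, *Jund*, *Junb*, *Elk4*, *Mef2a*, *Gadd45a*, *Zfp36l1*, *Map3k11* and *Plk3* also overlap those of a gene on the other strand, and those of *Elk4* a gene on the same strand.

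**Figure D4:**
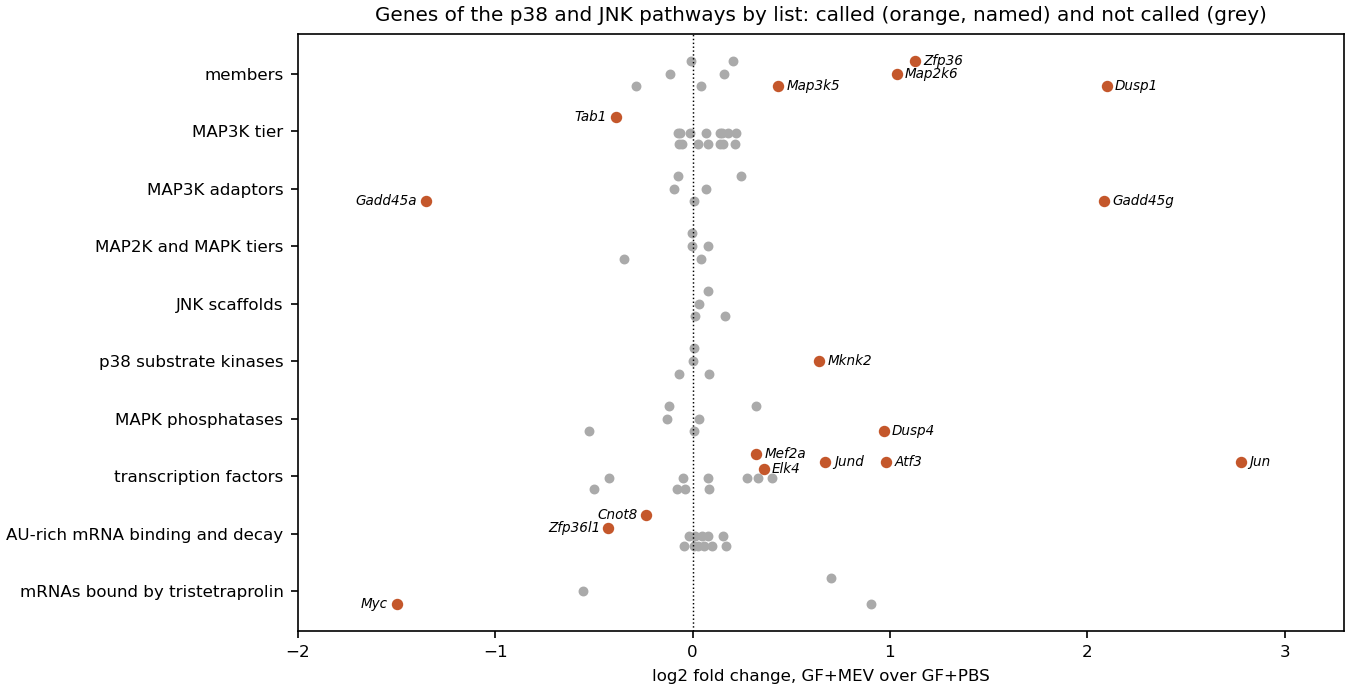
Log2 ratio (GF+MEV over GF+PBS) of each tested gene in the set of 10 and in the 9 lists of pathway genes, 1 row per list and 1 point per gene, spread vertically within a row for legibility; named orange genes were called by edgeR and grey ones were not. Outside the 10 genes, the transcription factors have the most calls, 5. The MAP2K and MAPK tiers (5 tested genes) and JNK scaffolds (4) have none, where 7.64% of all tested genes were called.

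Whole liver holds several cell types, and in such samples fewer cells of a type and less RNA per cell cannot be told apart. Of the 9 Kupffer cell and macrophage markers, cells in which *Dusp1* and *Zfp36* are also expressed, all were tested and none was called by edgeR, DESeq2 or limma-voom or had an unadjusted edgeR p under 0.05. They summed to 198 to 351 CPM in GF+MEV and 225 to 300.1 CPM in GF+PBS livers. None of the 6 neutrophil and none of the 7 T and NK cell markers was in the table. Of the 4 B cell markers, 2 were lower (*Cd79a* and *Cd79b*), and the sums were 3.86 to 4.88 CPM in GF+MEV and 6.61 to 8.44 CPM in GF+PBS livers. Of the 3 cholangiocyte markers tested, *Krt19* was higher, and all 3 had an unadjusted edgeR p under 0.05. Their sums were 28.1 to 79.3 CPM in GF+MEV and 23.2 to 29.7 CPM in GF+PBS livers, and *Krt7* and *Epcam* were not in the table. Of the 6 endothelial markers, *Lyve1* was higher and *Clec4g* lower, and the sums overlapped, from 97.1 to 156 CPM and from 117 to 162 CPM. For comparison, 4.12% of all tested genes were called higher by edgeR and 3.52% lower. None of the 6 stellate cell, 3 erythroid and 3 skeletal muscle markers was called. The skeletal muscle markers summed to 190 to 260 CPM in GF+MEV and 164 to 562 CPM in GF+PBS livers. The part of B cells, cholangiocytes, endothelium and the other cell types in the values of the 10 genes was not tested.

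Genes whose log2 CPM followed a member most closely over the 10 livers were picked by Pearson's r among the 11834 genes whose mean was 1 CPM or more. These r values describe 10 libraries in 2 groups, so a difference between the groups enters each of them, and they have no p. For *Dusp1* they were *G6pc*, the glucose-6-phosphatase subunit of gluconeogenesis (r = 0.990), the transcriptional corepressor gene *Irf2bp2* (0.986) and the mitochondrial carrier *Slc25a25* (0.986). For *Zfp36* they were *Slc45a3* (0.981), the EGF receptor inhibitor *Errfi1* (0.980) and the histone gene *H3f3b* (0.980). *Map2k6* was followed by the lipid droplet gene *Plin4* (0.977), *Fam214a* (0.975) and the flavin monooxygenase *Fmo5* (0.972).

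**Figure D5:**
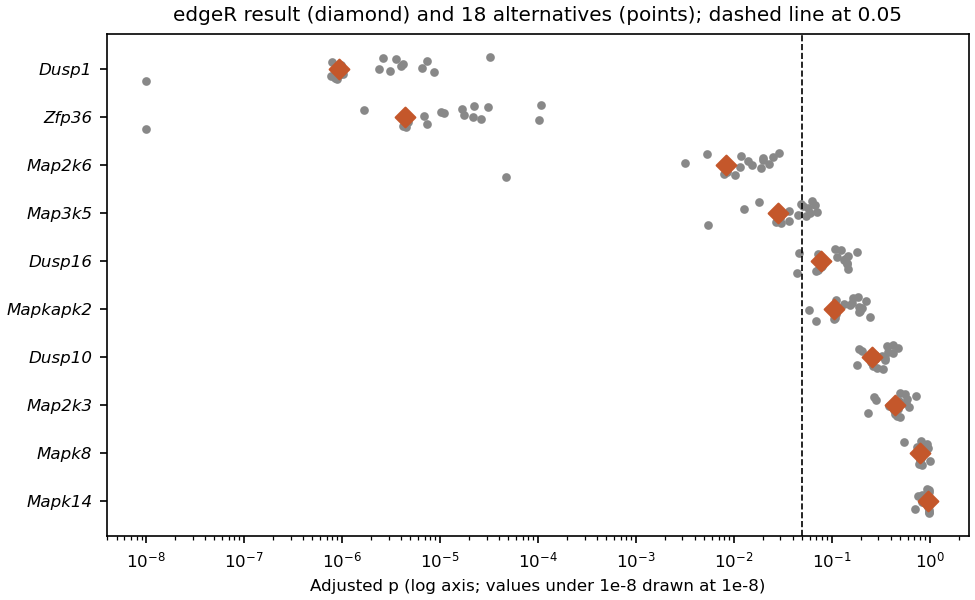
Adjusted p of the 10 genes on a log axis in the edgeR fit (diamonds) and in 18 alternatives (grey points), with the threshold of 0.05 as a dashed line and values under 1e-08 drawn at that limit. *Dusp1*, *Zfp36* and *Map2k6* lie left of the line in every alternative, *Map3k5* and *Dusp16* have points on both sides, and the other 5 genes lie right of it throughout.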

How the data were processed

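Whole liver RNA of 5 GF+MEV and 5 GF+PBS mice, 1 library per mouse, was analysed, and groups came from the sample labels. The authors prepared libraries with NEBNext Ultra, aligned reads to GRCm38 with STAR 2.7.3a, counted them per Ensembl gene with HTSeq, dropped genes under 20 counts across the samples, and deposited raw counts without normalization. The annotation release and the strand setting of the counting are not given in the sources used here. The table also held 5 columns that match no described sample, which were not used. Of its 12148 genes, 11725 had at least 10 counts in each of the 10 libraries. A gene that is not in the table may thus have had more than 20 counts in all.

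Symbols, positions and exon lengths came from GENCODE M21 on GRCm38, in which 5 identifiers had no symbol, promoters from RefSeq on GRCm38.p6 (all 10 genes matched), and 3′ ends from the longest annotated stretch after a stop codon. Genes whose counts over the 10 livers summed to 20 or more were tested with edgeR 4.0.16 in R 4.3.3 (TMM, estimated dispersions, quasi-likelihood test, Benjamini-Hochberg adjustment, threshold 0.05). Standard errors and 95% intervals were computed on log2 CPM (prior count 2), and the CPM of each of the 10 genes was compared by an exact two-sided permutation test over all labelings of 5 livers against 5. The steps were tested on simulated data. No set test was run, and no p was adjusted over a list alone.

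Named were the 10 genes, every called gene of a pathway list, the most abundant gene per kb of each list, and for *Dusp1*, *Zfp36* and *Map2k6* the 3 genes most alike over the livers. The 10 genes, all lists and the summing of alike livers were chosen with earlier results of these data known.

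Alternatives were DESeq2 1.42.0, limma-voom (limma 3.58.1), DESeq2 size factors or upper-quartile scaling in edgeR, no filter, a filter of 10 counts in each library, the replicate number of the labels as a block, each liver left out in turn, the alike GF+PBS livers summed, CPM without TMM factors, and the length of the longest transcript.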

Additional observations from a re-analysis of the deposited data

Results flagged for a closer look

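*Zfp36* in GF+PBS 2 was at 77.6 CPM, while the 4 livers beside it in that group had 105 to 111 CPM. The gap to the nearest liver made up 0.821 of the range of the group, over Dixon's critical value of 0.71 for 5 samples. Among 20 groups of values tested, 1 was picked out, and chance alone gives 1. The same liver was also the lowest GF+PBS liver for *Dusp1*, at 16.6 CPM. Without it, *Zfp36* had a log2 ratio of 1.04 (edgeR adjusted p = 1.67e-06).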

How the results depend on the processing

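*Dusp1* (log2 ratio 1.99 to 2.18), *Zfp36* (1.04 to 1.19) and *Map2k6* (0.85 to 1.17) were called in all 18 alternatives, with a highest adjusted p of 0.0291 for *Map2k6*. *Map3k5* was lost with the alike GF+PBS livers summed (0.45, adjusted p = 0.0635) and kept with DESeq2, limma-voom and the other scalings and filters. With each liver left out in turn, its log2 ratio ran from 0.35 to 0.50 and its adjusted p from 0.0128 to 0.0707, and it was lost in 5 of 10 fits. *Dusp16* was called by DESeq2 (0.21, adjusted p = 0.0445) and ran from 0.18 to 0.25 with single livers left out. Values near 0 changed sign, *Mapk8* to -0.00015 with upper-quartile scaling and *Mapk14* between -0.047 and 0.032 with single livers left out, neither of them called. Upper-quartile scaling moved the median of all genes by -0.042. Leaving out single livers, 3 to 4 of the 10 genes were called higher and none lower, 6 to 10 pathway genes higher and 1 to 5 lower, and 388 to 561 of all genes higher and 304 to 397 lower. With the alike livers summed, 352 of all genes were called higher and 209 lower, and 6 pathway genes higher and 1 lower. Fewer samples enter these fits.

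Whether the replicate numbers in the labels pair the livers is not given. Same-numbered livers deviated from their group means with correlations of 0.166, -0.084, -0.052, -0.188 and 0.059, and livers 1 and 5 correlated best with their own number. These values show no strong pairing and cannot exclude a weak one. With the number as a replicate block, 792 genes were called in place of 928, *Map3k5* had a log2 ratio of 0.43 (adjusted p = 0.0545), 3 pathway genes were lower, and no other of the 10 genes changed its call.

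With the longest transcript as length, *Zfp36* held 65.0% and 40.5% of its family in GF+MEV and GF+PBS livers, *Zfp36l1* 25.3% and 46.8%, and *Dusp16* 11.8% and 19.2% of the phosphatases, in the same order between the groups as with merged exons. Without TMM factors, the mean CPM of every one of the 10 genes moved by less than its SD in both groups, and the higher group changed for *Mapk8* alone (20.2 and 20.8 CPM). Depth limited *Dusp10* most, at 44 to 93 reads per liver.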
